A study of Homo sapiens with 9 samples.

Results

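The genes described here encode the subunits of the respiratory chain and of ATP synthase, the machinery of oxidative phosphorylation in the inner mitochondrial membrane. They were taken by symbol from the platform annotation, using probe sets that name exactly 1 gene. A symbol qualified if it began with NDUFA, NDUFB, NDUFC, NDUFS, NDUFV, UQCR or ATP5, if it began with COX followed by a number from 4 to 8, or if it was a succinate dehydrogenase gene from SDHA to SDHD, while NDUFAF assembly factors and pseudogenes were left out. This rule found 80 of 19775 named genes. They have 155 probe sets, 35 genes having 1 and 45 having several, and each gene is represented by the probe set with the highest mean over the 9 arrays. The 80 genes are 33 of complex I, 3 of complex II, 6 of complex III, 17 of complex IV, 18 of ATP synthase, and 3 noncoding RNAs that share a subunit's symbol (NDUFB2-AS1, NDUFV1-DT and NDUFV2-AS1). Among the 77 protein-coding genes, ATP5IF1 encodes the inhibitor of ATP synthase, COX7A2L a factor of respiratory supercomplexes, and NDUFAB1 the mitochondrial acyl carrier protein, which is also bound in complex I.

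The cells were BL2, an established human Burkitt lymphoma line, profiled on HG-U133 Plus 2.0 arrays. They had been given recombinant human CD40L for 6 hrs, lipopolysaccharide (LPS) for 6 hrs, or no agent as control, all in the same serum-containing medium. Each group has 3 arrays, 1 from each of 3 experimental batches, which the methods call independent biological experiments of this 1 line. CD40L is the T cell protein that engages CD40, a costimulatory receptor of B cells, and LPS is a bacterial cell wall component sensed by TLR4.

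Complex I accepts electrons from NADH and complex II from succinate. Both pass them through ubiquinone to complex III, from which cytochrome c carries them to complex IV and to oxygen. Complexes I, III and IV pump protons, and ATP synthase uses the resulting gradient to make ATP. The genes are spread over nuclear chromosomes, while a few core subunits are encoded by mitochondrial DNA, and promoters of the nuclear genes are known for binding sites of NRF1, of ETS family factors such as GABP, and of YY1.

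Most of these genes were expressed above the middle of the arrays. The mean level, on a generalised log2 scale that is flatter for dim probe sets, was above the overall median of 6.446 for 77 of the 80 genes, and array medians lay between 6.42 and 6.48. The low ones were isoforms known from muscle, lung or testis. COX4I2 averaged 6.70, COX6A2 6.53, COX6B2 6.52, COX7A1 6.30, COX7B2 6.15 and COX8C 5.87, all close to the array medians. Their widely expressed counterparts COX4I1, COX6A1, COX6B1, COX7A2, COX7B and COX8A averaged between 11.6 and 12.9, each by its own probe set, so that the levels of different genes are not set against each other. ATP5MF, a membrane subunit of ATP synthase, was also dim at 6.46 on its only probe set that names 1 gene.

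After CD40L, 2 of the 80 genes were higher and 1 was lower than in control by limma with batch in the model and Benjamini-Hochberg adjustment over 54613 probe sets. All 3 belong to complex I. NDUFV2 and NDUFV3, of the NADH-oxidising tip of complex I, rose 1.29-fold and 1.21-fold, and NDUFB5, of its membrane arm, fell to 0.805 of control. Over all probe sets, 3.71% were called higher and 1.87% lower after CD40L. Counts of 2 and 1 among 80 genes are too small to be told apart from these background shares, and the difference was not tested. Among the 12630 genes whose brightest probe set was above the median level, which is where nearly all of the 80 lie, the shares were 7.81% and 4.47%. At an unadjusted p of 0.05, 2 of the 80 were higher (2.5%) and 5 lower (6.25%), against 10.3% and 5.48% of all probe sets and 18.9% and 10.1% of the genes above the median level. The higher ones were NDUFV2 and NDUFV3, and the lower ones NDUFB5, COX7A2L, NDUFV1, NDUFA8 and NDUFB7.

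**Figure D1:**
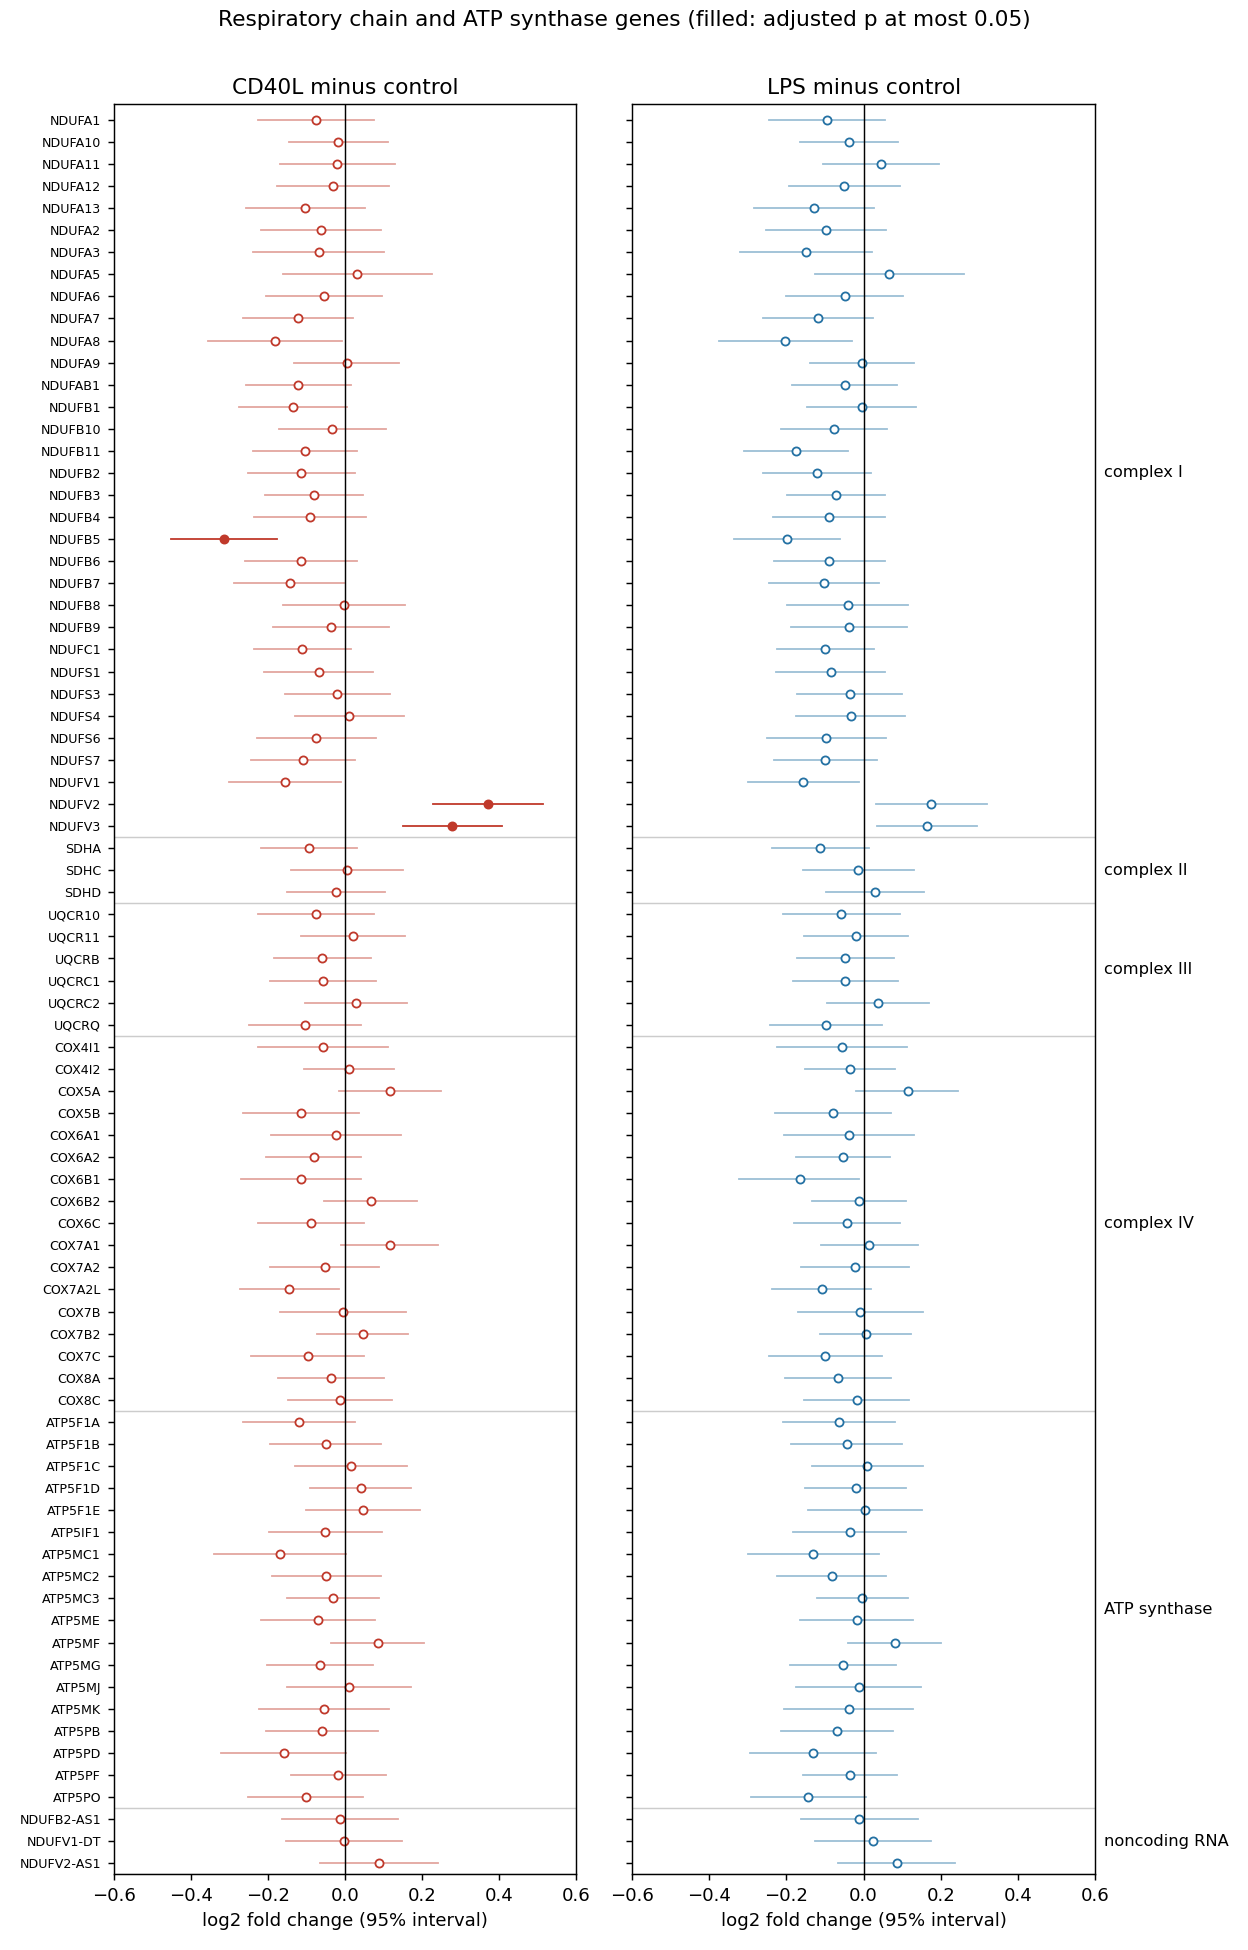
Log2 fold change of each of the 80 genes (rows, grouped by complex) after CD40L (left) and LPS (right) against control, with 95% intervals from the fit over 9 arrays. Filled points passed an adjusted p of 0.05, which only NDUFV2, NDUFV3 and NDUFB5 did, after CD40L, and 61 of the CD40L estimates and 66 of the LPS estimates lie left of 0.

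The changes were small, and the precision was enough to bound most of them. The 95% interval of the change after CD40L lay within 0.322 log2 units of 0 for 75 of the 80 genes, a bound chosen after the data were seen. The exceptions were NDUFV2, NDUFV3, NDUFB5, NDUFA8 and ATP5MC1. The median estimate was -0.05 on the log2 scale, with 61 genes below 0 and 19 above, against 0.005 over all probe sets and 0.04 over the 1786 genes with a mean level above 10. Without the control array of batch 2 this median was -0.008, without the CD40L array of batch 3 it was -0.015, without all arrays of batch 2 it was -0.03 and without those of batch 1 it was -0.09. The median absolute change was 0.07, against 0.08 over the genes above the median level and 0.10 over those with a level above 10.

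NDUFV2 encodes an iron-sulphur subunit that takes electrons from the flavin of NDUFV1. Its level was 11.42, 11.35 and 11.31 in CD40L batches 1, 2 and 3, 11.17, 11.02 and 11.30 in LPS, and 10.92, 11.01 and 11.04 in control. Every CD40L array was above every control array, and the LPS arrays lay between, with batch 2 inside the control range. The change after CD40L was 0.37 ± 0.07 on the log2 scale (SE, n = 3 each), with an adjusted p of 0.00297 in limma. After LPS it was 0.18 (adjusted p = 0.269), and CD40L minus LPS was 0.19 (adjusted p = 0.648). Within batches 1, 2 and 3 the CD40L difference was 0.50, 0.34 and 0.27. Without the arrays of batch 1 the change was 0.31 and was no longer called (adjusted p = 0.105).

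NDUFV3 encodes a small accessory subunit beside NDUFV1 and NDUFV2. It measured 9.10, 9.12 and 9.13 in CD40L, 8.99, 8.87 and 9.14 in LPS, and 8.87, 8.79 and 8.86 in control. The CD40L arrays were again all above control. The change after CD40L was 0.28 ± 0.06 (SE, adjusted p = 0.0113 in limma) and that after LPS 0.16 (adjusted p = 0.25). A second, dimmer probe set of NDUFV3 gave 0.15 after CD40L and was not called (adjusted p = 0.265). Leaving out batch 1, batch 3, the CD40L array of batch 2 or the control array of batch 3 ended the call, with changes between 0.23 and 0.30 and adjusted p between 0.0548 and 0.102.

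NDUFB5, an accessory subunit of the membrane arm, moved the other way. Its level was 10.94, 11.16 and 11.11 in CD40L, 11.15, 11.08 and 11.32 in LPS, and 11.33, 11.41 and 11.41 in control. All CD40L and all LPS arrays were below the control arrays. The change was -0.31 ± 0.06 after CD40L (SE, adjusted p = 0.00736 in limma) and -0.20 after LPS (adjusted p = 0.16). The CD40L call was lost without batch 1, batch 3, or the CD40L array of batch 1 or 3, where the change stayed between -0.32 and -0.27 and the adjusted p lay between 0.0599 and 0.143. Full separation of CD40L from control was not confined to called genes. NDUFB7 measured 9.507, 9.481 and 9.596 in CD40L and 9.624, 9.696 and 9.698 in control, and was not called (adjusted p = 0.308 in limma). NDUFC1 and UQCRQ also separated without a call. The share of all probe sets that separated in this way was not counted.

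**Figure D2:**
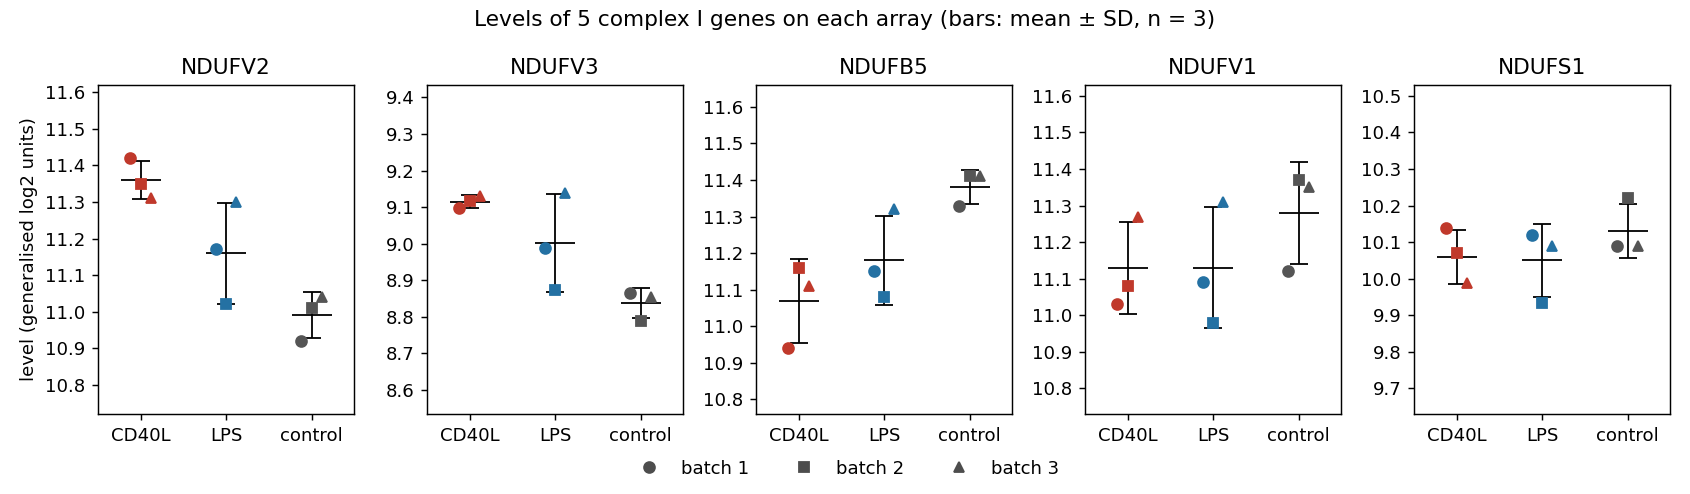
Level of 5 complex I genes (generalised log2 units) on each of the 9 arrays, for CD40L, LPS and control from left to right, with marker shape giving the batch and bars the mean ± SD (n = 3). NDUFV2 and NDUFV3 are higher on every CD40L array than on every control array and NDUFB5 is lower, while CD40L and control overlap for NDUFV1 and NDUFS1. Such separation is not confined to called genes, since NDUFB7, NDUFC1 and UQCRQ, not shown and not called, have it too.

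The partners of NDUFV2 and NDUFV3 in the same module did not pass the test. The N module holds 8 of the measured genes, of which 2 were higher and 0 lower after CD40L, with a median change of -0.05. NDUFV1, which binds NADH and flavin, measured 11.03, 11.08 and 11.27 in CD40L, 11.09, 10.98 and 11.31 in LPS and 11.12, 11.37 and 11.35 in control. These ranges overlap, and its change was -0.155 ± 0.07 after CD40L (SE, adjusted p = 0.267). NDUFV1 has a dim second probe set at 6.70, where the change was -0.22 (adjusted p = 0.0342). NDUFS1, the largest iron-sulphur subunit, had a change of -0.07 after CD40L, and NDUFS4, NDUFS6, NDUFA2 and NDUFA12 had estimates between -0.08 and 0.01.

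The upstream sequences of the 3 flavoprotein-fraction genes are shown because 2 of them were the genes that rose and NDUFV1, their partner, was not called. They are the 250 bases before the annotated start, from RefSeq on GRCh38.p14, all on the plus strand, at chr18:9102449-9102698 for NDUFV2, chr21:42893059-42893308 for NDUFV3 and chr11:67606686-67606935 for NDUFV1. SDHD, a complex II gene with a CD40L change of -0.02, is added at chr11:112086623-112086872 as a promoter that holds the NRF1 and ETS motifs, which the other 3 lack. Capitals mark the GC box GGGCGG on either strand in the first 3 sequences, and in SDHD the NRF1 core GCGCNTGCG, present on both strands with overlap, and the ETS core CCGGAAG, read on the minus strand.
NDUFV2: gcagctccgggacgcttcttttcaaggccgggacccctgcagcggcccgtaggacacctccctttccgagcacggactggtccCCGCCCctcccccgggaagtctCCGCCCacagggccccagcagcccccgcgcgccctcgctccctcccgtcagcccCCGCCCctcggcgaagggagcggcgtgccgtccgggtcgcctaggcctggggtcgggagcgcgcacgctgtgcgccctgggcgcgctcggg
NDUFV3: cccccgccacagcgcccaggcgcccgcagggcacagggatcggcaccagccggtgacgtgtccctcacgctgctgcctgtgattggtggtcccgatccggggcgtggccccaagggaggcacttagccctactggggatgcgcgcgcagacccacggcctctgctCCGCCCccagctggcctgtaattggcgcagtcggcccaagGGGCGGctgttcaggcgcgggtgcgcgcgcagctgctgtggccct
NDUFV1: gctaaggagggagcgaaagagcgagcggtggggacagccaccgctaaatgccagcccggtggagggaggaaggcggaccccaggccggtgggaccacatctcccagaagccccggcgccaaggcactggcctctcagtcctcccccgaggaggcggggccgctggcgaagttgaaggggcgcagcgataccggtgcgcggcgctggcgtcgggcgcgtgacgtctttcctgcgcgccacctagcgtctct
SDHD: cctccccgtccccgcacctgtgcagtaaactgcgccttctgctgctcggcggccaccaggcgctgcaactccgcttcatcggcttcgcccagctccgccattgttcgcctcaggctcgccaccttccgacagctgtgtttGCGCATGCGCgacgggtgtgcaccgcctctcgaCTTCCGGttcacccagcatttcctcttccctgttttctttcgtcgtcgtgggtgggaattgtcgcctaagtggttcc

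The 3 flavoprotein-gene sequences were rich in G and C, at 76.8% for NDUFV2, 72.8% for NDUFV3 and 70.4% for NDUFV1. NDUFV2 had 3 GC boxes in these bases, NDUFV3 had 2 and NDUFV1 had 0. None of the 3 held the NRF1 core, the ETS core, the YY1 core AAGATGGC or the NF-kB motif GGGANNTTC. NDUFB5 was not among the genes matched.

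Promoter windows from 250 bases before to 50 after a start were matched for 69 of the 80 genes and scanned on both strands, a gene counting if any of its windows held the motif. The NRF1 core was in 34.8% of these genes against 9.01% of all 27305 genes in the table, the ETS core in 27.5% against 12.2%, and the YY1 core in 15.9% against 3.52%. At least 1 of the 3 was in 42 genes, or 60.9%, against 21.5% of all genes, and the ETS and YY1 motifs can overlap by their last and first bases. The GC box was in 63.8% against 48.3%. The NF-kB motif was in 5 genes, ATP5F1C, ATP5MJ, COX7A2L, NDUFS7 and UQCRC2 (7.25% against 5.09% of all genes). None of them was called after either agent in the fit of the deposited values. Only 2 of the 80 genes were called higher and 1 lower after CD40L, so the absence of a call among 5 genes says nothing about the motif. The called gene NDUFB5 was not scanned. These matches describe letters in a window, and binding was not measured.

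Across complex I the estimates leaned below 0, as in the other complexes, and apart from NDUFV2, NDUFV3 and NDUFB5 none passed the test. Of its 33 genes, with these included, 28 had a CD40L estimate below 0 and 5 above, with a median of -0.07. Below 0 were also 13 of 18 ATP synthase, 4 of 6 complex III and 12 of 17 complex IV genes, and 25932 of all 54613 probe sets. The complex I median was -0.02 in batch 1, -0.11 in batch 2 and -0.08 in batch 3. After NDUFB5, the accessory subunit NDUFA8, with paired cysteines, had the next largest fall in estimate. NDUFA8 measured 10.77, 10.76 and 10.86 in CD40L, 10.73, 10.57 and 11.02 in LPS and 10.79, 11.09 and 11.05 in control. The change was -0.18 after CD40L (adjusted p = 0.282) and -0.20 after LPS (adjusted p = 0.307), and the groups overlapped. NDUFAB1 had a change of -0.12 after CD40L (adjusted p = 0.401). In the Q module, the part of complex I where electrons reach ubiquinone, the estimates were -0.11 for NDUFS7, -0.02 for NDUFS3 and 0.03 for NDUFA5.

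Complex II, which is also the citric acid cycle enzyme succinate dehydrogenase, was represented by 3 genes with 0 called. The flavoprotein gene SDHA measured 10.14, 10.13 and 10.20 in CD40L, 10.07, 10.09 and 10.24 in LPS and 10.11, 10.31 and 10.32 in control, a change of -0.09 (adjusted p = 0.523). The membrane anchor genes SDHC and SDHD had CD40L changes of 0.004 and -0.02. All 3 intervals lay within 0.322 log2 units of 0 after CD40L and after LPS.

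Complex III had 6 genes with 0 called and a median CD40L change of -0.06. UQCRQ, a small accessory subunit, had the largest fall in estimate at -0.10 (adjusted p = 0.549), with 11.64, 11.64 and 11.69 in CD40L, 11.63, 11.47 and 11.88 in LPS and 11.70, 11.75 and 11.82 in control. Its CD40L arrays were all below its control arrays. UQCRC2, a core subunit, and UQCR11 had the highest estimates, 0.03 and 0.02. CYC1 encodes cytochrome c1, a haem subunit of complex III whose symbol the naming rule does not cover. Its group means were 11.64 in CD40L, 11.57 in LPS and 11.30 in control, and it rose by 0.34 after CD40L (adjusted p = 0.00324 in limma) and by 0.27 after LPS (adjusted p = 0.0313). It was named after its values were seen.

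Complex IV, cytochrome c oxidase, had 17 genes with 0 called after CD40L. The largest fall in estimate was that of COX7A2L at -0.145 (adjusted p = 0.233), which measured 10.64, 10.86 and 10.76 in CD40L, 10.76, 10.75 and 10.87 in LPS and 10.82, 10.97 and 10.91 in control. Each CD40L array of COX7A2L was below the control of its own batch, although the groups overlapped across batches. The highest estimates were those of COX7A1, the muscle isoform, at 0.12 (adjusted p = 0.374) and COX5A, which like COX5B surrounds the catalytic core, also at 0.12 (adjusted p = 0.416). COX7A1 lay between 6.33 and 6.42 in CD40L, between 6.23 and 6.34 in LPS and between 6.19 and 6.31 in control, which is at the middle of the arrays, where the scale is flat and a change can be hidden. None of the isoforms with restricted tissue expression was called, and their estimates ran from -0.08 for COX6A2 to the value of COX7A1. Among the widely expressed isoforms, COX4I1 changed by -0.06, COX6A1 by -0.02, COX6B1 by -0.12, COX7A2 by -0.05, COX7B by -0.01 and COX8A by -0.04, none of which passed the test.

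ATP synthase had 18 genes, 0 of them called after CD40L, with 13 estimates below 0 and a median of -0.05. The catalytic core genes ATP5F1A, which encodes the alpha subunit, and ATP5F1B, the beta subunit, changed by -0.12 (adjusted p = 0.464) and -0.05 (adjusted p = 0.832). The c subunits form the rotor ring and are encoded by a set of paralogous genes. ATP5MC1 measured 10.77, 10.67 and 10.91 in CD40L, 10.81, 10.51 and 11.14 in LPS and 10.79, 10.95 and 11.10 in control, a change of -0.17 after CD40L (adjusted p = 0.325). Its paralogues ATP5MC2 and ATP5MC3, which encode the same mature protein, changed by -0.05 and -0.03. The peripheral stalk genes ATP5PD and ATP5PO changed by -0.16 (adjusted p = 0.334) and -0.10 (adjusted p = 0.573), and the inhibitor gene ATP5IF1 by -0.05 (adjusted p = 0.836). ATP5MF had the highest estimate at 0.08 (adjusted p = 0.561). The 3 noncoding RNAs had estimates of -0.01, -0.004 and 0.09, with levels between 6.47 and 7.24.

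After LPS, 0 of the 80 genes were called in either direction by limma, while 1.17% of all probe sets were higher and 0.892% lower. At an unadjusted p of 0.05, 2 were higher (2.5%) and 5 lower (6.25%), against 7.06% and 4.57% of all probe sets and 12.5% and 9.05% of the genes above the median level. The higher ones were NDUFV2 and NDUFV3, and the lower ones NDUFB5, NDUFB11, NDUFA8, NDUFV1 and COX6B1, a subunit of complex IV. COX6B1 measured 11.60, 11.52 and 11.72 in CD40L, 11.50, 11.39 and 11.80 in LPS and 11.56, 11.81 and 11.81 in control, and its LPS change was -0.17 (adjusted p = 0.381). The median LPS estimate was -0.05, with 66 genes below 0 and 14 above, and 77 of the 80 intervals lay within 0.322 log2 units of 0, NDUFB5, NDUFA8 and COX6B1 being the exceptions. The CD40L and LPS contrasts share the control arrays, so their common direction is not counted as a result.

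CD40L was also compared with LPS directly. Again 0 of the 80 genes were called in limma, against 0.3% of all probe sets called higher and 0.0952% lower. At an unadjusted p of 0.05, 1 was higher and 0 lower, against 2.94% and 2.04% of all probe sets. That 1 gene was NDUFV2. The median difference was 0.002, ran from -0.06 without the LPS array of batch 2 to 0.07 without all arrays of batch 3, and the interval lay within 0.322 log2 units of 0 for 79 of the 80 genes, with NDUFV2 as the exception. The test did not separate the 2 agents for NDUFV3, where CD40L minus LPS was 0.11, or for NDUFB5, where it was -0.115 (adjusted p = 0.999 for both).

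The batches differed in the direction of these small shifts. The median CD40L change of the 80 genes was 0.01 in batch 1, -0.11 in batch 2 and -0.08 in batch 3, and the median LPS change was -0.03, -0.21 and 0.05. After CD40L, 24 of the 80 genes (30%) were below control in all 3 batches and 6 (7.5%) above. This compares with 14.6% and 18.4% of all probe sets, and 17.2% and 25% of the genes above the median level. Of the 24, 15 were complex I genes, which are 33 of the 80. After LPS, 9 (11.2%) were below control in every batch and 4 (5%) above. Here the background was 14.6% and 17% of all probe sets, and 18% and 21.9% of the genes above the median level. NDUFV2, NDUFV3 and the dim ATP5MF were above control, and NDUFB5, NDUFA8, NDUFB11, NDUFV1 and COX7A2L below it, in every batch under both agents.

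A pair of LPS arrays carried most of the LPS spread. As a deviation from each gene's mean over the 9 arrays, the median of the 80 genes was -0.14 on the LPS array of batch 2 and 0.13 on that of batch 3, while the remaining arrays lay between -0.05 and 0.07. The 1786 genes with a level above 10 moved the same way on those arrays, at -0.07 and 0.07. Without the LPS array of batch 2 the median LPS change was 0.01, and without all arrays of batch 2 it was 0.02. Without the LPS array of batch 3 it was -0.12, without all arrays of batch 3 -0.11, and without those of batch 1 -0.07. Leaving out the control array of batch 1, 2 or 3 gave -0.07, -0.01 and -0.07. The part of these arrays' overall shift in the values of the 80 genes was not tested.

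**Figure D3:**
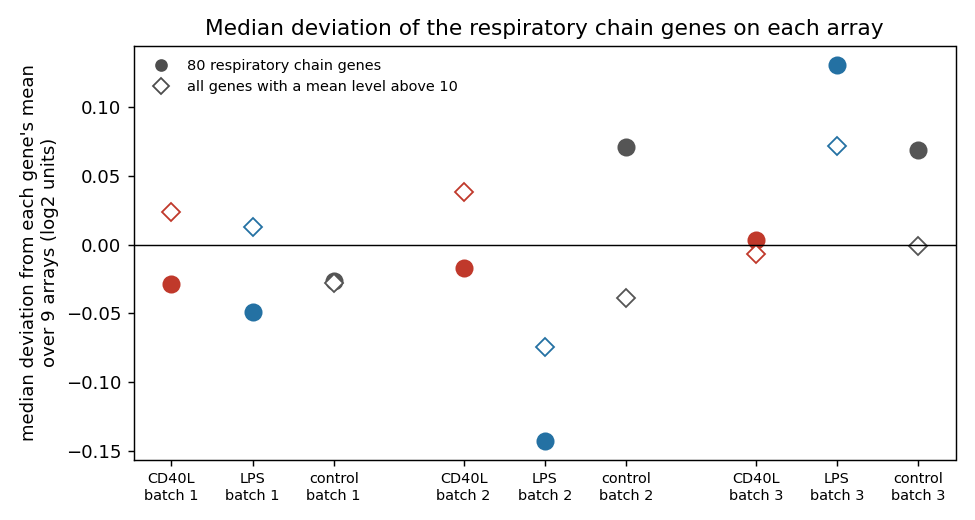
Median deviation from each gene's own mean over the 9 arrays (log2 units), for the 80 respiratory chain genes (filled circles) and the 1786 genes with a mean level above 10 (open diamonds), by batch with CD40L, LPS and control from left to right. The LPS arrays of batches 2 and 3 lie lowest at -0.14 and highest at 0.13 for the 80 genes.

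Other probe sets of the same genes gave a few calls that the brightest one did not. Of 75 such probe sets, 1 was higher and 2 lower after CD40L, and 2 were higher and 0 lower after LPS. COX7B, a small subunit of complex IV, had a second probe set with 7.16, 7.24 and 7.002 in CD40L, 7.21, 7.13 and 7.15 in LPS and 6.997, 6.84 and 6.71 in control. There it rose by 0.28 after CD40L (adjusted p = 0.0144 in limma) and by 0.31 after LPS (adjusted p = 0.0169), while its bright probe set at 12.1 gave -0.01 after each agent. A second COX5A probe set at 8.10 rose by 0.28 after LPS (adjusted p = 0.0276), where the bright one gave 0.11. A second NDUFC1 probe set at 7.06 gave -0.25 after CD40L (adjusted p = 0.0173), where the bright one gave -0.11 (adjusted p = 0.409). All the disagreeing probe sets were far dimmer than the chosen ones, and which transcripts they detect was not tested.

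Genes that serve the same complexes were taken as lists, whose counts stand beside the background given above. Of the genes above the median level, 7.81% were called higher and 4.47% lower after CD40L, and 2.51% higher and 2.3% lower after LPS. Of 18 assembly factors of complex I, 2 were higher and 2 lower after CD40L (11.1% each), with a median change of 0.04, and 0 were called after LPS in limma, where 3 were higher and 2 lower at an unadjusted p of 0.05. NDUFAF6 rose by 0.28 (adjusted p = 0.0198) and COA1 by 0.27 (adjusted p = 0.00781). TIMMDC1 fell by 0.33 (adjusted p = 0.0089) and TMEM126B by 0.26 (adjusted p = 0.0337), both of them factors for the membrane arm. Of 35 assembly factors of the other complexes, 6 were higher (17.1%) and 0 lower after CD40L, with a median of 0.06, and 3 were higher (8.57%) and 0 lower after LPS. TTC19, a complex III factor, rose by 0.34 after CD40L (adjusted p = 0.00532) and 0.35 after LPS (adjusted p = 0.0119). COX11, which delivers copper to complex IV, rose by 0.335 (adjusted p = 0.0022) and 0.34 (adjusted p = 0.00546). COA7 rose by 0.30 after CD40L (adjusted p = 0.00441).

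Calls among genes for the import of mitochondrial proteins and for mitochondrial gene expression were few and all higher. After CD40L, calls also leaned higher over the genes above the median level, 7.81% against 4.47% lower. Of 24 import genes, 4 were higher (16.7%) and 0 lower after CD40L, with a median change of 0.11, and 2 were higher (8.33%) and 0 lower after LPS, with a median of 0.08. TOMM40, the channel of the outer membrane, had group means of 10.36 in CD40L, 10.14 in LPS and 9.84 in control. It rose by 0.52 after CD40L (adjusted p = 0.000387 in limma) and by 0.30 after LPS (adjusted p = 0.0469). TIMM17A, of the inner membrane translocase, rose by 0.27 after CD40L (adjusted p = 0.00994) and 0.265 after LPS (adjusted p = 0.0235). Of 20 regulators of mitochondrial gene expression, 3 were higher (15%) and 0 lower after CD40L, with a median of 0.10, and 0 were called after LPS in limma, where 5 were higher and 1 lower at an unadjusted p of 0.05. POLRMT, the mitochondrial RNA polymerase, rose by 0.47 after CD40L (adjusted p = 0.0046), the nuclear receptor gene ESRRA by 0.36 (adjusted p = 0.0158), and POLG2, an accessory subunit of the mitochondrial DNA polymerase, by 0.23 (adjusted p = 0.0277). Of 75 mitochondrial ribosomal protein genes, 5 were higher and 0 lower after CD40L, with a median of 0.07, and 1 was higher after LPS. These higher shares, 6.67% and 1.33%, were near the 7.81% and 2.51% of the genes above the median level. MRPL39 rose by 0.56 after CD40L (adjusted p = 2.4e-05) and 0.32 after LPS (adjusted p = 0.00987), MRPS26 by 0.445 after CD40L (adjusted p = 0.000533) and MRPL34 by 0.43 after CD40L (adjusted p = 0.00166). MRPL34 was also higher after CD40L than after LPS, by 0.38 (adjusted p = 0.0248). The medians of these lists stand beside that of the 80 respiratory chain genes as descriptions, and the difference between lists was not tested.

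The enzymes that feed the chain showed both directions. After CD40L, 4 of 24 citric acid cycle and pyruvate entry genes rose (16.7%) and 1 fell (4.17%), with a median change of 0.03. After LPS 0 were called in limma, where 4 were higher and 1 lower at an unadjusted p of 0.05, and the median was 0.02. MPC1, of the mitochondrial pyruvate carrier, rose by 0.33 after CD40L (adjusted p = 0.00231), and DLD, a subunit of pyruvate dehydrogenase, by 0.31 (adjusted p = 0.00266). PDK3, a kinase that inhibits pyruvate dehydrogenase, fell by 0.37 (adjusted p = 0.00187). Of 25 electron carrier, ubiquinone synthesis and nucleotide carrier genes, CYC1 was the 1 higher gene after each agent and 0 were lower. The medians of this list were 0.03 after CD40L and 0.003 after LPS. Of 19 glycolytic genes, 2 fell after CD40L (10.5%) and 3 after LPS (15.8%), and none rose. ALDOC, an aldolase, fell by 0.30 after CD40L (adjusted p = 0.00615) and 0.33 after LPS (adjusted p = 0.00813), and PFKM, a phosphofructokinase, by 0.25 (adjusted p = 0.0193) and 0.31 (adjusted p = 0.0108). Of the genes encoded by mitochondrial DNA, 7 had a probe set naming 1 gene. None was called after either agent in limma, with 1 higher and 0 lower at an unadjusted p of 0.05 after each. Their median change was -0.065 after CD40L and -0.07 after LPS, also below 0. By batch, the CD40L median was 0.24 in batch 1, -0.29 in batch 2 and -0.08 in batch 3.

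**Figure D4:**
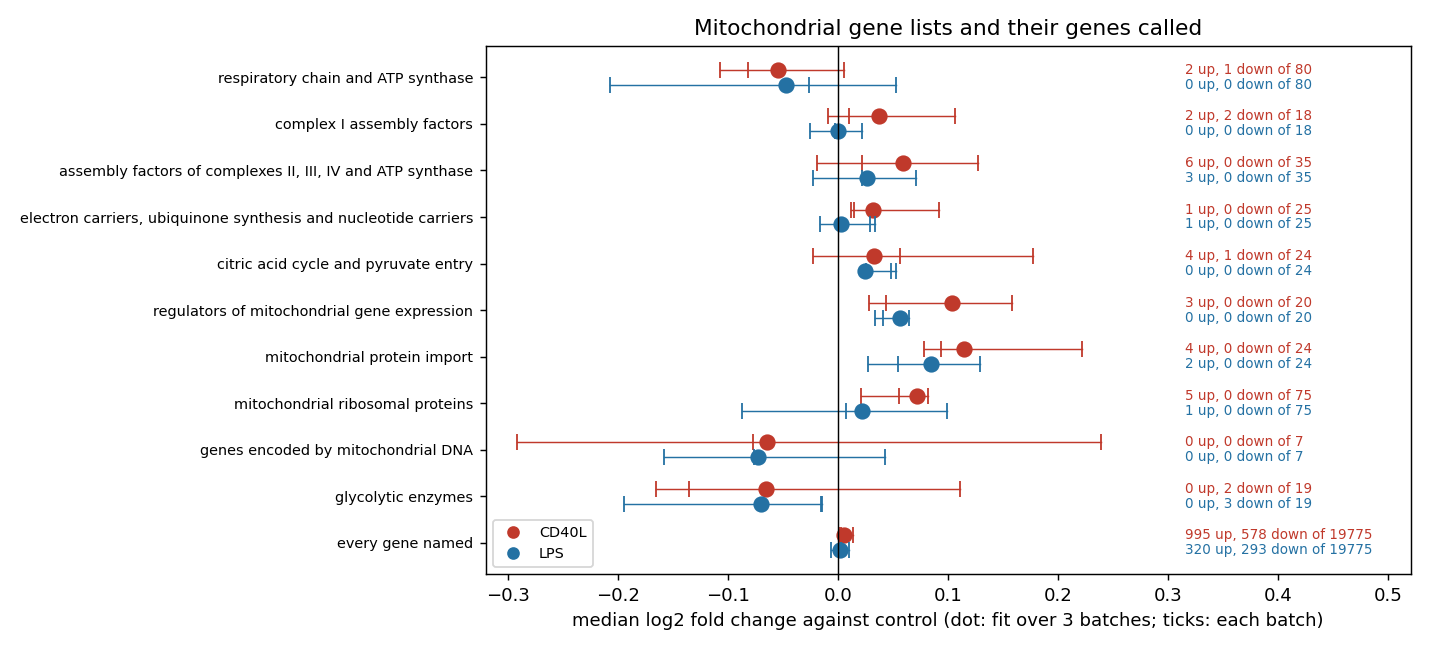
Median log2 fold change against control of the 80 genes and of related gene lists after CD40L (upper symbol of each pair) and LPS (lower), with dots from the fit over 3 batches, ticks for the median in each batch, and at right the number of genes called higher and lower at an adjusted p of 0.05. The 80 genes have 2 up and 1 down after CD40L and medians of -0.05 for both agents, and protein import has 4 up and 0 down with medians of 0.11 and 0.08.

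Cell type markers were looked at, each by its own probe set, which can bear on the B lineage but not on the identity of the line. B cell and germinal centre markers averaged between 8.83 and 13.9. T cell, NK cell, monocyte and fibroblast markers lay lower, COL1A1 at 7.94 being the brightest, and none was called on its gene's brightest probe set. The paper, which took the probe set with the strongest response, lists COL1A1 among its most changed genes after CD40L. Other probe sets of these markers are not covered here. Of 9 B cell markers, 0 were higher and 6 lower after CD40L, with a median of -0.45, and 0 were higher and 4 lower after LPS. Replicate arrays of a group correlated between 0.994 and 0.997. The control probe sets for GAPDH were brighter at the 3′ than at the 5′ end by 0.13 to 0.23 on the log2 scale, the highest on the CD40L array of batch 3, and those for ACTB by 0.31 to 0.48, the highest on the control arrays of batches 3 and 2. The ACTB difference between CD40L and control was 0 in batch 1, -0.16 in batch 2 and -0.03 in batch 3, beside median changes of the 80 genes of 0.01, -0.11 and -0.08. Between LPS and control it was 0.04, -0.07 and -0.04, beside -0.03, -0.21 and 0.05. The part of RNA quality in the values was not tested. In bulk RNA, a change in the share of cells and a change in RNA per cell cannot be told apart.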

How the data were processed

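Total RNA of BL2 cells was hybridised to HG-U133 Plus 2.0 arrays. The authors corrected the background, normalised the probes by variance stabilisation, reduced each probe set to 1 value per array by median polish, and deposited generalised log2 values. These were used as deposited. The 3 arrays in each group limit the precision. Of the probe sets, 62 AFFX controls were left out and 54613 tested, of which 41091 name 1 gene in the platform annotation, 1801 several and 11721 none.

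All 9 arrays were fitted with limma 3.58.1 in R 4.3.3 (statmod 1.5.0 for the random effect), with group and batch as terms, as in the study's methods, a moderated two-sided test and Benjamini-Hochberg adjustment over all probe sets at 0.05. The batch number in the labels marks a shared experimental batch, which is where the pairing comes from. Deviations of same-batch arrays from their group means correlated at 0.217 on average, with 7 of 9 pairs over 0.1. The fit was tested on simulated data. Fold changes are treated minus control, or CD40L minus LPS.

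The genes and lists were chosen with earlier results of these data known. Named were the genes called in a contrast, in each complex the 2 highest and the 2 lowest estimates, the brightest and dimmest, and all isoforms, and of related lists up to 3 called genes with the largest changes. NDUFV1, NDUFS1, NDUFB7, NDUFB11 and the other N and Q module genes were added for their roles or after their values were seen. So were ATP5F1B, ATP5IF1, NDUFC1 and the noncoding RNAs.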

Additional observations from a re-analysis of the deposited data

How the results depend on the processing

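Of the 38 genes named by rule, 114 changes were recomputed under 21 settings, except that the filter on dim probe sets removed COX7A1, COX7B2 and COX8C. Of these values, 2371 kept their direction or stayed uncalled, 9 lost the call, 5 gained one and 0 called values turned round. The fit with no replicate block gave the same 3 calls, 2 higher (NDUFV2, adjusted p = 0.0132, and NDUFV3, 0.0422) and 1 lower (NDUFB5, 0.0409), and changed no other call of the 80 genes. Over all probe sets it called 884 higher and 562 lower after CD40L, against 2027 and 1022 with the block, and 156 and 166 after LPS, against 637 and 487. With batch as a random effect it was 1112 and 677 after CD40L and 247 and 248 after LPS, and with only the 2 groups compared 1122 and 676 after CD40L. Leaving out a batch or an array gave 812 to 2517 higher and 449 to 1332 lower after CD40L, and 147 to 856 higher and 115 to 722 lower after LPS.

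Leaving out 1 batch or 1 array gave 0 to 2 genes higher and 0 to 1 lower after CD40L, with the libraries that decide it named in the report. With quantile normalisation, 2 genes were lower after CD40L, NDUFB5 and COX7A2L (-0.20, adjusted p = 0.0329), and 2 after LPS, NDUFB5 (-0.24, adjusted p = 0.0268) and NDUFB11 (-0.22, adjusted p = 0.0328), and the split over all probe sets after CD40L was 1707 higher and 1694 lower. Taking each gene's probe set of largest change gave 3 higher (COX7B added) and 3 lower after CD40L, and 2 higher after LPS. The mean of a gene's probe sets gave 2 lower after CD40L, NDUFB5 and NDUFC1. The median CD40L change ran from -0.09 to -0.01 over all settings, and the median LPS change from -0.12 to 0.02. The cause of these differences was not tested. Signal near the array medians limits the dim isoforms.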
